A study of Mus musculus with 4 samples.

Results

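The genes described here are the beta-defensins (Defb genes) and the BPI-fold secreted proteins (Bpif genes) of the mouse, together with their relatives Bpi and Lbp and with Camp, Ltf and Pigr, which act in the same mucosal secretions. They were picked by name, with earlier results of these data already known. In the expression table they take up 63 of the 23242 rows: 44 beta-defensins (2 of them named as pseudogenes), 14 Bpif genes and the other 5. RNA sequencing compared 2 wild-type FVB mice (mice 27 and 28, ERG negative) with 2 FVB mice homozygous for the TMPRSS2:ERG transgene (mice 26 and 29, ERG positive), 1 library per mouse from the ventral and dorsal prostate lobes. The transgene is a bacterial artificial chromosome holding the TMPRSS2 locus with a cassette of human ERG exons, from which a floxed GFP was removed with Cre protein, and all homozygotes come from a single sub-line. Age was not given in the sources used here. Values of a genotype are given in the order mouse 27, mouse 28 for wild type and mouse 26, mouse 29 for homozygotes.

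Beta-defensins are short, positively charged peptides that epithelia secrete and that damage microbial membranes. Their genes lie in tight arrays, and many of them are known from the epididymis, where they coat sperm. BPI-fold proteins bind lipids, including bacterial lipopolysaccharide, and most Bpif genes are known from the mouth, nose and airways. Lbp carries lipopolysaccharide to Cd14, which passes it to Tlr4. Camp (cathelicidin) and Ltf (lactoferrin, which binds iron) are antimicrobial, and Pigr carries IgA and IgM across epithelia into secretions.

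All values are FPKM, fragments counted relative to transcript length and to the library's total, divided here by a scaling factor per library of 0.921 to 1.04 (scaled FPKM). The step between the lowest values places the libraries at an estimated 45300000 to 52000000 fragments. Every library held between 11541 and 11854 genes at 1 FPKM or more. The prostate markers Pbsn (9483 to 14395 scaled FPKM) and Hoxb13 (238 to 288) were present in all 4 libraries. Seminal vesicle transcripts differed between the wild types and between genotypes: Svs1 had 3424 and 236 scaled FPKM in the wild types against 3.83 and 1.05 in the homozygotes. In lobe tissue, fewer cells of a type and less RNA per cell cannot be told apart.

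Of the 63 members, 35 were listed at 0 in all 4 libraries, 15 had a value above 0 but a mean under the minimum of 1 scaled FPKM, and 13 were tested. In homozygotes Bpifb5, Defb2, Lbp and Defb14 rose and Pigr fell, by limma at an adjusted p of 0.05. The other 8 tested members did not pass. Over the 11765 genes tested, 7.65% passed, 4.65% higher and 3.00% lower. Both Bpifb5 and Defb14 had a wild-type mean under 1 scaled FPKM, so they entered the test only through the homozygotes, and the 5 of 13 cannot be read against those shares as it stands. The median log2 fold change of the 13 was 0.158, against -0.00327 for all genes tested. The groups did not overlap in 9 of the 13, with homozygotes higher in 5 and lower in 4. Over all genes tested they did not overlap in 51.1%, with homozygotes higher in 25.3% and lower in 25.8%. Bpifb5 and Defb14 are also in that median and among the 5 higher. Neither the median nor these counts can thus be read against all genes as they stand. The exact permutation test on a single gene cannot give a two-sided p under 0.333 with 2 mice against 2, so each call rests on the variance that limma shares across genes.

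**Figure D1:**
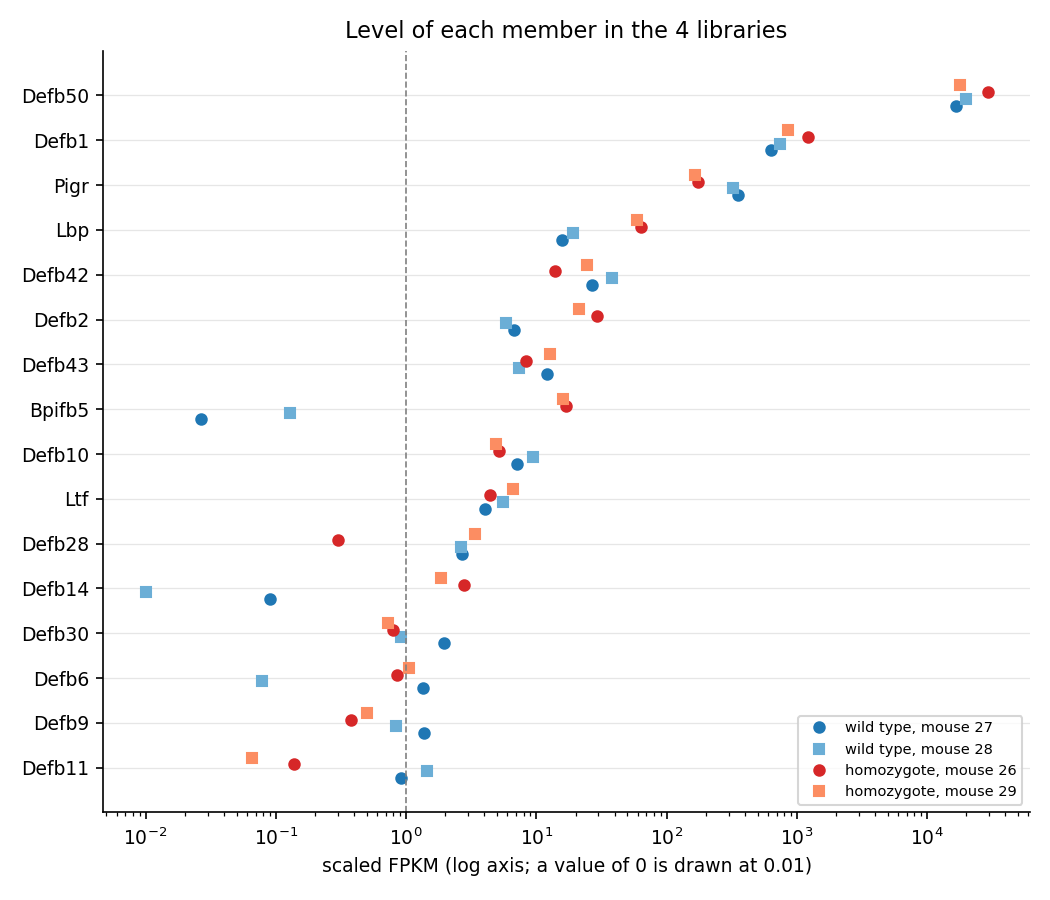
Scaled FPKM (log axis) of the 13 tested members and of Defb6, Defb9 and Defb11, with 1 point per library; the dashed line marks 1 scaled FPKM, the minimum mean for the test, and a value of 0 is drawn at 0.01. Defb50 lies between 16726 and 29202, Bpifb5 and Defb14 are high in both homozygotes only, and both Pigr values of the homozygotes lie below both of the wild types.

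The beta-defensin message of these lobes was nearly all Defb50, which RefSeq also lists under the name Pbd1 (Entrez 387334, chromosome 8, 21823539 to 21831296, mm10). The wild types held 16726 and 20019 scaled FPKM of it, and the homozygotes 29202 and 17989. Only mouse 26 stood above the rest, and mouse 29 lay between the wild types. By deposited FPKM it ranked 8th and 7th of all rows in mice 27 and 28 and 3rd and 4th in mice 26 and 29. It made up 95.1% to 96.1% of the summed scaled FPKM of all beta-defensins in each library. Its log2 fold change was 0.32 (SE 0.599, limma adjusted p = 0.833), and it was -0.022 without mouse 26. With quantile normalization the value was 0.54 and passed (limma adjusted p = 0.0294).

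Defb1, the constitutive epithelial beta-defensin that the table pairs with human DEFB1, was the only other abundant one. Its levels were 630 and 748 scaled FPKM in wild type against 1217 and 857 in homozygotes. Both homozygotes lay above both wild types, but the difference of 0.57 (SE 0.247) did not pass (limma adjusted p = 0.270). Defb50 exceeded Defb1 by 21.0 to 26.8 times within each library, on the FPKM scale, which is per length. All other beta-defensins together summed to between 62.1 and 71.6 scaled FPKM.

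Defb2 rose. This inducible beta-defensin, paired in the table with human DEFB4A, lies next to Defb50 (Entrez 13215, chromosome 8, 21839926 to 21843481). Its levels rose from 6.69 and 5.90 scaled FPKM in wild type to 29.04 and 21.4 in homozygotes. The lowest homozygote was thus well above the highest wild type, and the means were 6.29 ± 0.555 and 25.2 ± 5.43 (SD, n = 2 each). The log2 fold change was 1.83 (SE 0.167, limma adjusted p = 0.00352), and the authors' deposited table gives 2.00 (q-value 4.5e-06). The call was lost with no filter on low values (limma adjusted p = 0.114).

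Next to Defb2 on its other side lie Defb10, Defb9 and Defb11, and in all 3 both homozygotes lay below both wild types. Defb10 had 7.09 and 9.39 scaled FPKM in wild type against 5.15 and 4.94 in homozygotes. Its difference of -0.60 (SE 0.149) did not pass (limma adjusted p = 0.0792). It passed without mouse 27 (limma adjusted p = 0.0037), where the spread comes from the homozygotes alone and the calls over all genes went from 900 to 2028. Defb9 and Defb11 lay under the minimum and were not tested. Defb9 had 1.38 and 0.835 scaled FPKM in wild type against 0.378 and 0.5004 in homozygotes. Defb11 had 0.919 and 1.45 in wild type against 0.137 and 0.0654 in homozygotes, which is an estimated 12 and 21 fragments against 2 and 1.1. The authors' deposited table gives -3.18 for Defb11 (q-value 0.169).

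Defb2, Defb9, Defb10 and Defb11 are close copies of each other. Of the 50-base windows of their annotated transcripts, 20.7% in Defb2, 9.96% in Defb9, 16.9% in Defb10 and 19.8% in Defb11 also occur in another gene, mostly in each other. Reads from those windows can be split between the copies, so the values of these 4 genes are uncertain to that extent. Defb50, Defb1 and Defb14 shared no such window. Defb9, Defb10 and Defb11 also resemble each other upstream, and the 250 bases before each annotated start (RefSeq, GRCm38.p6, which is mm10, from the reference strain C57BL/6J and not FVB) are shown for the 3 that were lower, 5′ to 3′ in each gene's own direction. Capitals mark the longest stretch that all 3 share, 28 bases.

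Defb10 (chr8:21858651-21858900, plus strand): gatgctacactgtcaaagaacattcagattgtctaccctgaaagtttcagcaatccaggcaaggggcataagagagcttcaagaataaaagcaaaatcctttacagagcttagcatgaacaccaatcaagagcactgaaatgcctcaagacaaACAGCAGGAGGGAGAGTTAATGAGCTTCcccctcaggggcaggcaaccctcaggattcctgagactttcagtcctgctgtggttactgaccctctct
Defb9 (chr8:21885435-21885684, minus strand): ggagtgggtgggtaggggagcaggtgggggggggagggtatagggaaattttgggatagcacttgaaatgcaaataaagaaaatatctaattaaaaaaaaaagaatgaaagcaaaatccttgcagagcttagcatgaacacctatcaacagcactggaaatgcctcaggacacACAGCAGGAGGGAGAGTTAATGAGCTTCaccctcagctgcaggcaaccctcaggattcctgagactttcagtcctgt
Defb11 (chr8:21906433-21906682, minus strand): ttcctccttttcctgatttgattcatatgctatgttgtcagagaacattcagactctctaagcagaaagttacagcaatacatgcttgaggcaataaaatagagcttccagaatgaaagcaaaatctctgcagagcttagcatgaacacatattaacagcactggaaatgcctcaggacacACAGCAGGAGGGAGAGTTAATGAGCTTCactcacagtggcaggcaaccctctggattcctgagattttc

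The shared stretch begins 97, 77 and 69 bases before the start of Defb10, Defb9 and Defb11. Of the 32851 windows of this length before annotated starts, only these 3 hold it. The stretch was picked as the longest that these 3 share, so that count is no test of it. Its part in their levels was not tested. Aligned end to end, the windows were 65.1% to 67.7% identical in pairs, against a median of 49.8% over the other 1078 pairs among the 47 members with an entry. Those other pairs were not picked as close copies. Defb2, Defb50, Defb1, Defb14 and Lbp have no entry in the promoter table. Whether Defb2, the close copy that rose, holds the stretch is thus not known.

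The array ends with Defb15 and Defb35, listed at 0 in all 4 libraries, and Defb13, at 0 in mice 27 and 26 and at about 0.13 in mice 28 and 29. Level and direction thus differed from gene to gene among the 9 neighbours.

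**Figure D2:**
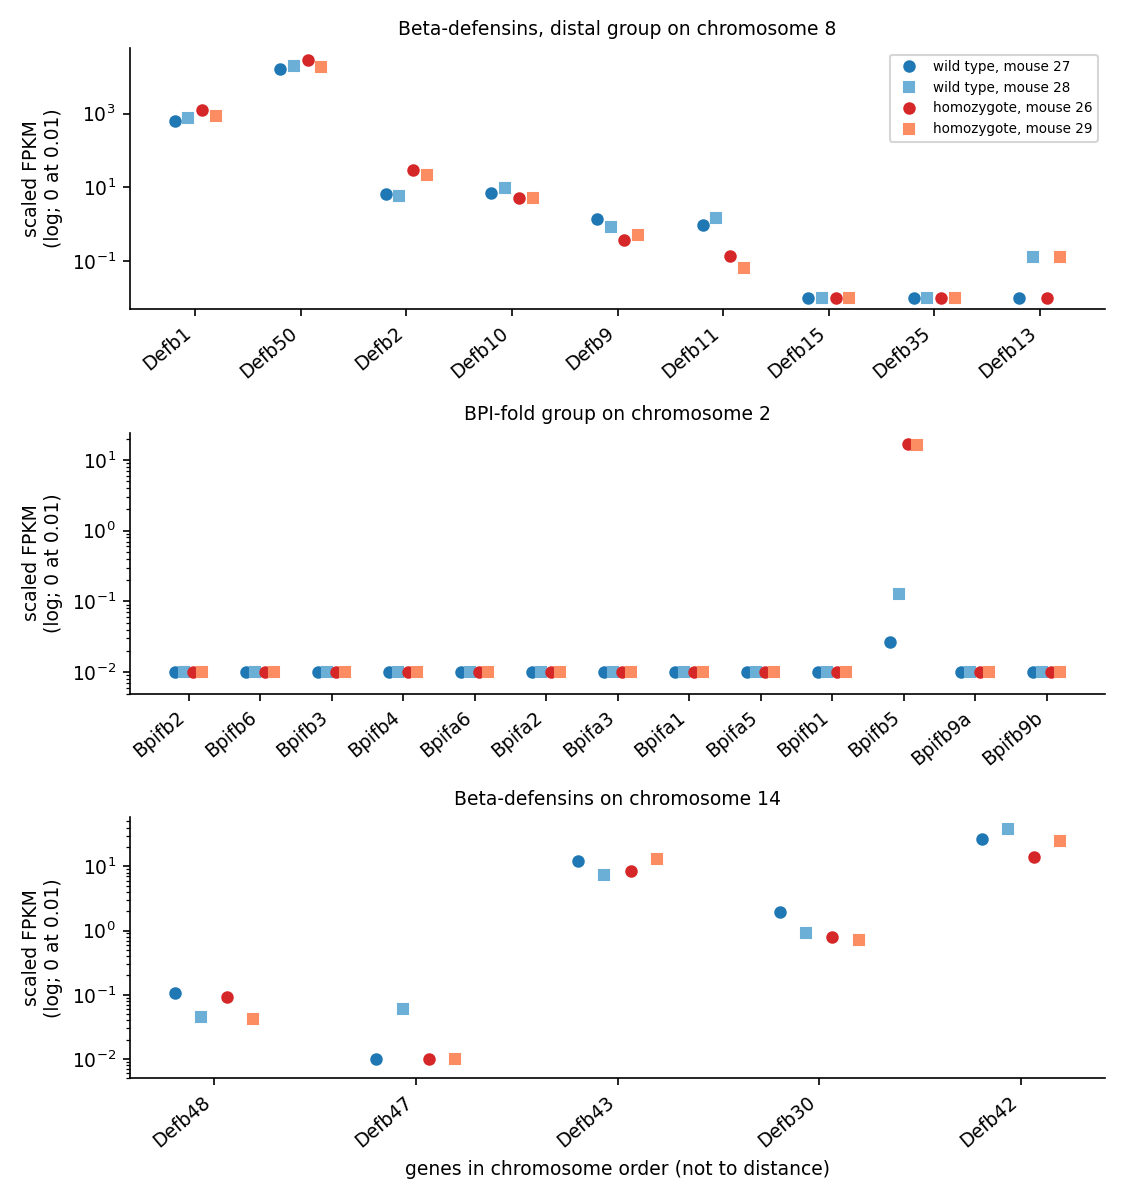
Scaled FPKM (log axis, 0 drawn at 0.01) of the genes of 3 arrays in chromosome order, with 1 point per library. In the top panel Defb2 is higher and Defb10, Defb9 and Defb11 are lower in both homozygotes; in the middle panel Bpifb5 is the only gene of 13 above 0 in any library; in the lower panel Defb43 overlaps between genotypes.

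Defb14 rose from the edge of detection. It is paired with human DEFB103A and lies in the proximal array of chromosome 8 (Entrez 244332, 19194328 to 19195309). The table lists it at 0.0905 scaled FPKM in mouse 27 and at 0 in mouse 28, against 2.78 and 1.84 in the homozygotes. That is an estimated 0.77 and 0 fragments against 26 and 20. The log2 fold change on the log2(scaled FPKM + 1) scale was 1.65 (SE 0.177, limma adjusted p = 0.00623), and the authors' deposited table gives 5.10 on its own scale (q-value 0.0183). The call was lost with no filter (limma adjusted p = 0.121), and without mouse 26 or mouse 29 the gene fell under the minimum and was not tested.

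Elsewhere in that array 9 of 14 genes were listed at 0 throughout, among them Defb4 and Defb3. Defb6 had 1.34 and 0.0790 scaled FPKM in wild type against 0.856 and 1.05 in homozygotes, so mouse 28 alone was low. Defb37 had 0.392 and 0.452 in wild type and was listed at 0 in both homozygotes, an estimated 5.8 and 7.4 fragments against none. Defb38 had 0.209 and 0.167 in wild type and 0 in both homozygotes. Of the 15 members with values under the minimum, 6 had a value in a wild type and 0 in both homozygotes (Defb26, Defb36, Defb37, Defb38, Defb40 and Defb47, the highest at 0.452). In 3 of the 6 (Defb36, Defb40 and Defb47) the value stood in 1 wild type only, at an estimated 0.84, 2.1 and 1 fragments. The reverse held for 1, Defb25. Over all 6137 genes under the minimum with a value above 0, 10.3% were at 0 in both homozygotes and 7.41% in both wild types. Beside these traces, genes of a list for epididymis and vas deferens went both ways. The epididymal gene Adam7 had 1.84 and 1.01 scaled FPKM in wild type against 0.0198 and 0.155 in homozygotes. Rnase13 had 0.0371 and 0.0940 in wild type against 0.574 and 0.292 in homozygotes. Lcn5 and Lcn8 had at most 0.0977 and 0.0314 in any library. Crisp1 (537 to 939) and Akr1b7 (1184 to 2021) were abundant in every library and overlapped between genotypes. Of the 8 tested genes of the list, 2 had a log2 fold change above 0 (median -0.367). The part of such tissue in these values was not tested.

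On chromosome 14, where 5 beta-defensins lie together, Defb42 and Defb43 were the expressed ones. Defb42 had 26.8 and 38.5 scaled FPKM in wild type against 14.03 and 24.5 in homozygotes. Both homozygotes lay below both wild types, narrowly so for mouse 29. The difference of -0.76 (SE 0.289) did not pass (limma adjusted p = 0.212), but it did without mouse 27 (limma adjusted p = 0.0324, again with 1 wild type), and the authors' deposited table gives -0.73 (q-value 0.0289). Defb43 had 12.1 and 7.36 in wild type against 8.36 and 12.8 in homozygotes, so the genotypes overlapped (0.12, SE 0.275, limma adjusted p = 0.871). Defb30 had 1.95 and 0.918 in wild type against 0.795 and 0.723 in homozygotes (-0.44, SE 0.221, limma adjusted p = 0.345), and it passed without mouse 28 (-0.74, limma adjusted p = 0.0142, with 1 wild type and 1630 calls over all genes). With a mean of 1.096 it was the tested member nearest to the minimum, and Defb6 (0.830), Defb9 (0.772) and Defb11 (0.642) lay nearest below it.

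On chromosome 2, 6 of 11 beta-defensins were listed at 0 throughout. Defb28 had 2.71 and 2.64 scaled FPKM in wild type and 3.39 in mouse 29, but 0.3004 in mouse 26. The homozygotes thus spanned both sides of the wild types (-0.62, SE 0.536, limma adjusted p = 0.600). Without mouse 29 the value was -1.49 and without mouse 26 it was 0.26.

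Bpifb5 had the largest change of any member. This BPI-fold gene, also named Lplunc5 in RefSeq (Entrez 228802, chromosome 2, 154223742 to 154240902, plus strand, protein coding), had 0.0268 and 0.127 scaled FPKM in wild type against 16.8 and 16.1 in homozygotes. The homozygotes lay close together, with a mean of 16.5 ± 0.446 (SD, n = 2) against 0.0771 ± 0.0711 (SD, n = 2), a ratio of means of 213. That ratio rests on an estimated 1.8 and 9.7 fragments in the wild types, against 1300 and 1400. The log2 fold change was 4.02 on the log2(scaled FPKM + 1) scale (SE 0.116, limma adjusted p = 9.7e-05) and 6.61 with a pseudocount of 0.1. The authors' deposited table gives 7.41 (q-value 0). The call held under every alternative run, with the least margin at no filter (limma adjusted p = 0.0364).

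The other 12 genes of the Bpif array on chromosome 2 were listed at 0 in all 4 libraries, among them the airway and salivary genes Bpifa1, Bpifa2 and Bpifb1. Its nearest neighbours, Bpifb1 on one side and Bpifb9a on the other, were among these. The first gene beyond the array, Cdk5rap1, was at 2.92 to 3.92 scaled FPKM and did not pass (-0.16, limma adjusted p = 0.618). Bpifc, the only Bpif gene on chromosome 10, was at 0.0483 to 0.0828 in the 4 libraries.

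The 250 bases before the start of Bpifb5 are shown because it alone in its array was expressed. Those of Pigr are shown because it alone was called lower by limma in the main setting. Capitals mark GGAA or its complement TTCC, the core that ETS factors such as ERG recognise.

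Bpifb5 (chr2:154223492-154223741, plus strand): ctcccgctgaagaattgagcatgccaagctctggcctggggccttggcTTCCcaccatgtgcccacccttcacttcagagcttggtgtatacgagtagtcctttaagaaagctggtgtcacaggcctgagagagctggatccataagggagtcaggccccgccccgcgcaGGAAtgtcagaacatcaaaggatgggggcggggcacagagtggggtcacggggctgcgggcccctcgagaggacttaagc
Pigr (chr1:130826434-130826683, plus strand): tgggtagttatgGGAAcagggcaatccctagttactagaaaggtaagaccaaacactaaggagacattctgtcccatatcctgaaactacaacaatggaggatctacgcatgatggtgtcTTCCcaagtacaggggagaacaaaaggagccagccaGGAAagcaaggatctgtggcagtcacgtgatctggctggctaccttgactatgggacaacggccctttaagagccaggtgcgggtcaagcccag

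The core occurs 2 times before Bpifb5 and 3 times before Pigr. On both strands 93.4% of all such windows hold it, with a median of 3. The longer form GGAAGT, which contains the core, is in neither and in 19.7% of all windows. The NF-kB pattern, GGG and CC with any 5 bases between them, occurs once before Bpifb5 and 3 times before Pigr (45.8% of all windows), and the TATA box TATAAA is in neither (12.4%). The Bpifb5 window has 60.0% G and C, against a median of 52.4%.

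Lbp rose. It went from 15.7 and 19.3 scaled FPKM in wild type to 63.6 and 59.0 in homozygotes (Entrez 16803, chromosome 2, 158306493 to 158332852). The genotypes were far apart against the spread within each: 17.5 ± 2.49 and 61.3 ± 3.24 (SD, n = 2 each). The log2 fold change was 1.76 (SE 0.132, limma adjusted p = 0.00183), and the authors' deposited table gives 1.80 (q-value 0). The call was lost with no filter (limma adjusted p = 0.0803). Bpi, its bactericidal relative in the adjoining row of the table, stayed at 0.107 to 0.216 scaled FPKM and was not tested.

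**Figure D3:**
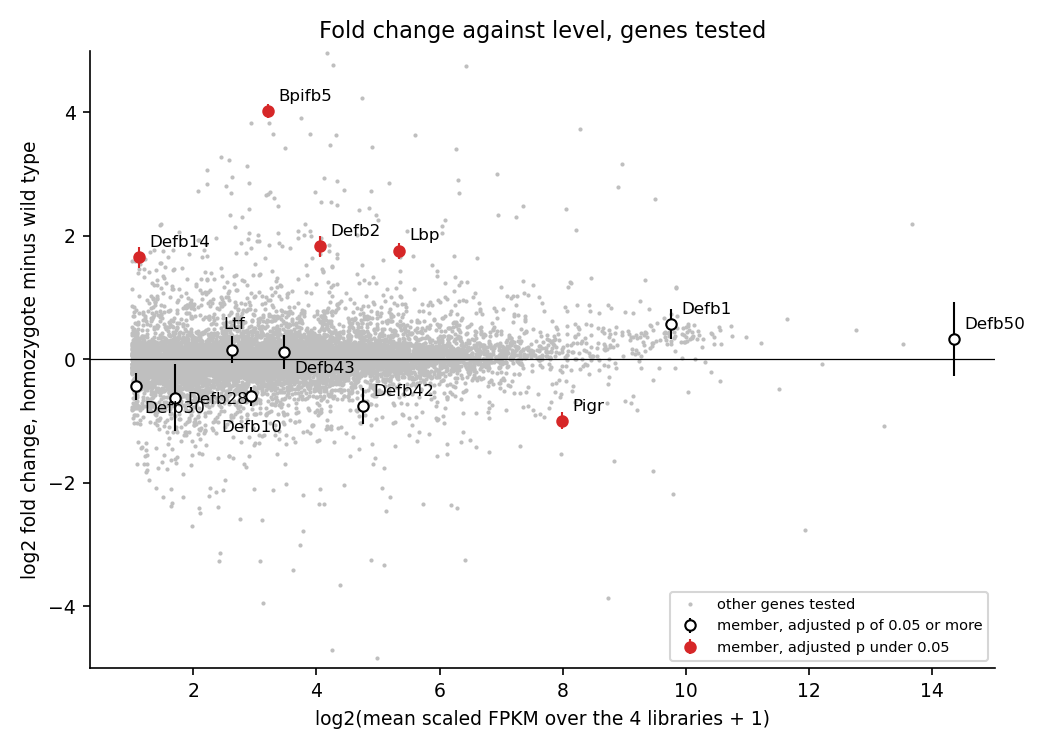
Log2 fold change (homozygote minus wild type) against log2 of the mean scaled FPKM + 1 for the genes tested; bars on members are standard errors, and 23 genes lie beyond the vertical axis. The red members are Bpifb5 (4.02), Defb2 (1.83), Lbp (1.76), Defb14 (1.65) and Pigr (-0.999); Defb50, at the far right, has the widest bar among the members.

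Pigr was the only member called lower by limma in the main setting. It went from 351 and 326 scaled FPKM in wild type to 174 and 164 in homozygotes (Entrez 18703, chromosome 1, 130826684 to 130852249). The homozygote mean of 169 ± 6.99 (SD, n = 2) was 0.499 of the wild-type mean of 339 ± 18.0 (SD, n = 2). The log2 fold change was -0.999 (SE 0.137, limma adjusted p = 0.0135). The call was lost without mouse 26 (limma adjusted p = 0.128), without mouse 29 (0.146) and with no filter (0.0854), while the size stayed between -1.14 and -0.92. The authors' deposited table gives -0.96 (q-value 0.0535).

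Ltf and Camp showed no call. Ltf had 4.03 and 5.59 scaled FPKM in wild type against 4.40 and 6.65 in homozygotes, so the genotypes overlapped (0.16, SE 0.216, limma adjusted p = 0.762). Camp was listed at 0 in all 4 libraries. Both are also carried by neutrophils. The neutrophil granule gene Ngp had at most 0.0216 scaled FPKM in any library, S100a8 0.512 to 1.47 and S100a9 0.182 to 1.11. The neutrophil list summed to 38.8 to 69.7 in wild type and 65.4 to 71.8 in homozygotes, of which Lyz2, which macrophages also express, made up 30.3 to 65.0, with 0 of its 3 tested genes called by limma and 1 of 22 found listed at 0 throughout.

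The partners of Lbp were read from a list for lipopolysaccharide recognition and Toll-like receptor signalling, in which 2 of 18 tested genes rose and none fell (median 0.207). Over all genes tested 4.65% passed as higher and 3.00% as lower, which are the shares beside the counts of the lists below too. Cd14, which takes lipopolysaccharide from Lbp, had 6.25 and 6.52 scaled FPKM in wild type against 22.4 and 21.5 in homozygotes, a rise of 1.64 (SE 0.1005, limma adjusted p = 0.000985). Nfkbia, the inhibitor of NF-kB, rose by 0.49, a call lost without mouse 26 (limma adjusted p = 0.427) and without mouse 29 (0.303). The receptor Tlr4 was at 0.44 and its co-receptor Ly96 at 0.05 on the log2 scale, and neither passed (limma adjusted p = 0.143 and 0.903).

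Among other epithelial antimicrobial and mucosal secretion genes, 7 of 24 tested rose and 2 fell (median 0.358), with Reg3b and Saa3 of the 7 tested only through the homozygotes. The siderophore binder Lcn2 rose by 2.49 and the vitamin B12 carrier Tcn2 by 3.17, while the lectin Itln1 and the ribonuclease Ang4 fell by 4.84 and 1.70. The list summed to 476 and 464 scaled FPKM in the wild types and to 2410 and 1852 in the homozygotes. Of these sums Tcn2 alone made up 94.0 and 102 in wild type and 982 and 805 in homozygotes. Lcn2 made up 47.1 and 49.2 against 290 and 261. Of the 24 tested genes 15 were not called. In the list for IL-17, IL-22 and Ccr6, 1 of 11 rose: Ccl20, which shares the receptor Ccr6 with beta-defensins, by 1.55, from a wild-type mean under the minimum. That call was lost with no filter (limma adjusted p = 0.065), and without mouse 26 or mouse 29 Ccl20 fell under the minimum and was not tested. Ccr6 itself had 0.0346 to 0.155 scaled FPKM and was not tested.

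Beside Pigr, 1 of 7 tested genes in the list for IgA and plasma cells fell and none rose (median 0.247). It was Fcamr, the receptor for IgA and IgM in the row next to Pigr, with 3.89 and 3.19 scaled FPKM in wild type against 1.05 and 1.04 in homozygotes (-1.15, SE 0.132, limma adjusted p = 0.00756). Igj, the joining chain of IgA and IgM, varied within genotypes: 5.19 and 1.62 in wild type, 5.49 and 2.52 in homozygotes.

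Markers of other cells and tissues were read from further lists, against the 7.65% called over all genes tested. In the list for salivary, lacrimal, nasal and airway glands 4 of 8 passed as higher, among them Dcpp1 (4.96) and the water channel Aqp5 (2.15), and 1 as lower, Smgc (-0.80). Of those 4, Dcpp1, Dcpp2 and Sftpd had a wild-type mean under the minimum and entered the test only through the homozygotes, so that count is no result about the list. The list summed to 138 and 137 scaled FPKM in wild type and to 267 and 223 in homozygotes, and 5 of its 28 genes were listed at 0 throughout. In the seminal vesicle list 6 of 9 fell and none rose, Svs1 (-8.16) and Svs3b (-7.16) with the smallest p. Its sums over the 9 genes with a value in every library were 42741 and 11089 in wild type and 4355 and 8190 in homozygotes. Of prostate secretory and luminal genes 9 of 23 fell and none rose, Crabp1 (-5.39) and Wfdc3 (-4.72) with the smallest p. The 25 of 28 with a value in every library summed to 49592 to 60009 scaled FPKM in wild type. In homozygotes that sum was 29201 to 45961. Within it Spink3 carried the difference, with 38671 and 30659 in wild type against 97.1 and 8.70 in homozygotes. Without Spink3 the direction turned, to 21338 and 18933 against 45864 and 29192. In homozygotes much of that remainder was Msmb, at 28119 and 14934, against 4243 and 4732 in wild type. Sbp and Sbpl are outside the sums, since both wild types hold the deposited top value, treated as missing. The homozygotes had 151 and 4.92 of Sbp and 70.1 and 2.32 of Sbpl. Tgm4 is outside for mouse 29 alone. The direction over all 28 is thus not known. In the epididymis list Mfge8, which many tissues express, rose by 1.25 and the other 7 of 8 did not pass. Of macrophage and other leucocyte genes 3 of 12 rose, the mast cell genes Cma1 (3.63), Cpa3 (3.48) and Mcpt4 (2.89). Of basal epithelium 1 of 9 rose (Itga6, 0.70), of urothelium 1 of 7 fell (Gsdmc2, -3.27), and of stroma 0 of 10 passed. Mouse 28 stood apart in urothelial markers: Upk3a had 1.91 and 51.7 scaled FPKM in wild type against 1.32 and 12.7 in homozygotes. The urothelium list summed to 321 and 655 against 431 and 402. In basal markers mouse 27 was the low one: the list summed to 126 and 255 in wild type against 249 and 213 in homozygotes. Krt5 had 31.5 and 87.1 against 66.0 and 64.5. The part of these cells in the members' values was not tested.

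**Figure D4:**
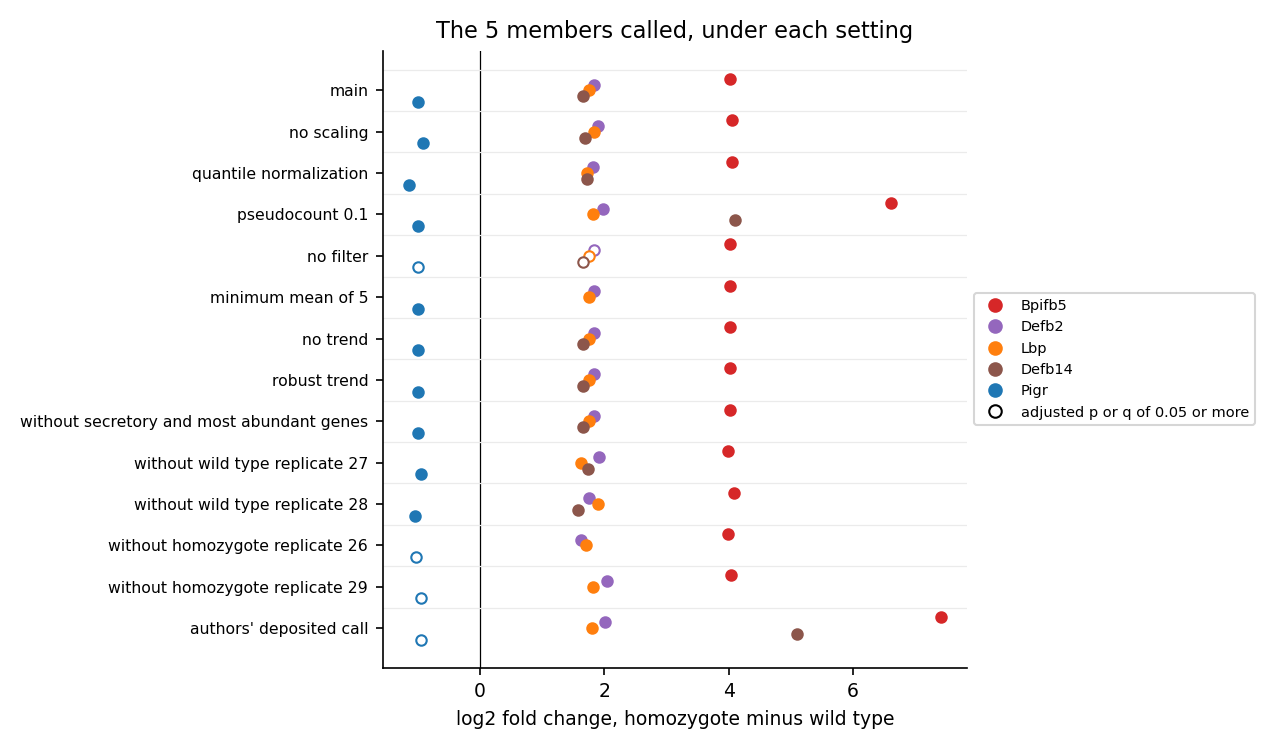
Log2 fold change of the 5 called members under the main setting and each alternative; open points have an adjusted p or q of 0.05 or more. No direction changes in these settings; Bpifb5 stays filled, with no filter the other 4 are open, Pigr is also open without mouse 26 or mouse 29 and in the authors' deposited table, and Defb14 has no point where it fell under the minimum.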

How the data were processed

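RNA from the ventral and dorsal lobes of 4 mice was sequenced, and the authors deposited 1 FPKM value per gene and library, a unit read from the values. TopHat 1.3, Cufflinks 1.3 and mm10 are named, per the submitters' processing notes; annotation and strand use were not given in the sources used here. Per the file headers, the authors also deposited a fold change, which the values show to be on the log2 scale (a score here, since an infinite fold is coded), with its p-value and q-value. The top value 99999 occurs in 7 genes and was treated as missing; 7 to 12 cells per library are blank. Starts were raised by 1, since 7253 of 20887 symbols then share the GENCODE start, against 748.

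FPKM were divided by median-of-ratios factors over genes at 1 or more in every library. Genes whose mean reached 1 scaled FPKM were tested with limma 3.58.1 in R 4.3.3 on log2(scaled FPKM + 1), two-sided, with a variance trend and Benjamini-Hochberg adjustment over all 11765 genes, a scale on which low genes show too small a fold change. Residual degrees of freedom were 2 and prior ones 3.63. Each library is its own mouse, and p-values weigh a gene's own spread between these mice together with the spread that limma shares across genes. Depth was estimated from the step between the lowest values of genes with 1 transcript, and estimated fragments use the longest GENCODE transcript; they cover counting error only. Of 63 members, 62 were found in GENCODE and 47 in the promoter table.

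Members and lists were chosen with earlier results of these data known, so no p is adjusted over a list. Named are every tested member and, from each list, the 2 called genes per direction with the smallest p. Adam7, Lcn8, Lyz2, Upk3a, Krt5, Mcpt4, Dcpp2, Sftpd, Reg3b, Saa3 and the members under the minimum were named after their values were seen. So were Ly96, Ccr6, Hoxb13, Cdk5rap1, Msmb, Sbp, Sbpl, Tgm4, Rnase13, Crisp1 and Akr1b7. Alternatives were the deposited scale, quantile normalization, 0.1 as pseudocount, testing without the filter, raising the minimum to 5, dropping the variance trend or fitting it robustly, removing secretory and very abundant genes, leaving out each library, and the authors' deposited q-value.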

Additional observations from a re-analysis of the deposited data

How the results depend on the processing

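With no filter on low values, limma called 126 genes (90 higher, 36 lower), 1 member higher (Bpifb5) and 0 lower; in the lists it called 1 for lipopolysaccharide recognition, 1 for other antimicrobial genes, 1 for salivary and airway glands, 1 for leucocytes, 2 for prostate and 0 for IL-17 and IL-22, IgA, epididymis, seminal vesicle, basal epithelium and urothelium. In the authors' deposited table the q-value was under 0.05 for 2034 genes (1012 higher, 1020 lower), with 17 other antimicrobial genes, 2 neutrophil, 4 epididymis, 2 basal and 6 urothelium genes. Without scaling 185 genes were lower, with 3 in seminal vesicle and 0 in basal epithelium; the share of calls that were higher went from 60.8% to 73%, and the median over all genes was 0.0631. A minimum of 5 left 231 genes lower, 0 for IgA and 2 for glands. Quantile normalization gave 1 for lipopolysaccharide recognition, 2 for IL-17 and IL-22, 0 for basal epithelium and 1 for stroma. Dropping the trend gave 1 and 0 for lipopolysaccharide recognition and basal epithelium. IL-17 and IL-22 had 2 with a pseudocount of 0.1, a robust trend, or secretory and very abundant genes removed. The robust trend gave 0 for seminal vesicle and urothelium, and removing secretory genes, which takes out most of those lists, gave 0 for seminal vesicle and prostate.

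Leaving out 1 library gave 355 (without mouse 26) to 2028 (without mouse 27) genes called, 216 to 995 higher (49.1% of calls higher without mouse 27) and 139 to 1033 lower, with 3 to 4 members higher and 0 to 3 lower. Lists ranged over 1 to 4 for lipopolysaccharide recognition, 10 to 16 for other antimicrobial genes, 0 to 4 for IL-17 and IL-22, 1 to 2 for IgA, 0 to 1 for neutrophils, 1 to 2 for epididymis, 2 to 6 for glands, 3 to 8 for seminal vesicle, 9 to 11 for prostate, 0 to 6 for basal epithelium, 1 to 6 for urothelium, 3 to 7 for leucocytes and 0 to 3 for stroma. The sign of 4 members with no call reversed when 1 library was left out. Defb28 ranged from -1.49 to 0.26 (without mouse 26), Defb50 from -0.022 (without mouse 26) to 0.68, Ltf from -0.091 (without mouse 29; -0.037 without mouse 27) to 0.41, and Defb43 from -0.20 (without mouse 28; -0.16 without mouse 29) to 0.45. With 1 library left out its genotype has a single mouse, assumed to vary like the other genotype. Smgc, Nfkbia and Itga6 lost their call without mouse 26 or mouse 29, where Ccl20 and Defb14 were not tested, and Svs1, Svs3b and Gsdmc2 with the robust trend. Beyond what is said here of fewer genes tested, the cause was not tested. No paired analysis was possible because the mouse numbers tie no wild type to a homozygote. Depth limits Defb14, Defb11, the wild-type level of Bpifb5 and the members with traces only, which rest on few estimated fragments in at least 1 genotype.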
